A study of Mus musculus with 24 samples.

Results

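The right ventricle was compared between the second and the first month after surgery that imposes pressure and volume overload on it (PSPI in the sample labels). The comparison used the 5 arrays labelled PSPI month 2 and the 5 labelled PSPI month 1, chosen by their titles from 24 arrays in all. The remaining arrays came from 4 PSPI month 3 and 10 sham-operated right ventricles and served here to estimate the spread between arrays and to give levels beside the comparison. All 24 samples were total RNA of mouse right ventricle with the strain entry M/FVB/10-12, labelled with Cy3 and read on 1-colour Agilent arrays. The month 2 and month 1 samples carried the same operation and differed, as far as the labels go, in the time since surgery. The labels give no time for the sham group. Nor do they state that replicates were different mice, so the tests rest on differences among the samples as deposited, part of which may be technical. Values below are log2 intensities relative to each array's 75th percentile, so a difference of 1 is a 2-fold difference, and levels of different genes are not comparable.

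A right ventricle that pumps against raised pressure and volume thickens. Its myocytes characteristically re-express fetal genes such as the slow myosin heavy chain and the natriuretic peptides, its fibroblasts lay down matrix, and its oxidation of fatty acids and its repolarising potassium currents commonly decline. Month 2 against month 1 asks how such features, or others, differed between 2 times that are both after the operation.

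All 7 ventricular genes examined (Myl2, Myl3, Tnni3, Tnnt2, Actc1, Ryr2 and Myh6) were well above background on all 10 arrays. Of 12 lung epithelial markers, 7 were well above background on none of the 10, and so were 7 of 18 skeletal muscle markers, among them the fast myosins Myh1, Myh2 and Myh4, while 8 of the 18 were well above background on all 10. Between 36.1% and 51.2% of the 55681 probes were well above background on each of the 10 arrays, no probe was saturated, and 12449 genes were tested.

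The month 1 arrays did not form a uniform group. Month 1 arrays 2, 3 and 4 differed from each other by a median absolute log2 difference over genes of 0.142 to 0.184, and month 1 arrays 1 and 5 by 0.149. Across these 2 sets the differences were 0.241 to 0.318. The month 2 arrays stood 0.132 to 0.304 from month 1 arrays 1 and 5, against 0.200 to 0.326 from month 1 arrays 2, 3 and 4. On the leading component of the 10 arrays, which held 42.6% of the variance, month 1 arrays 2, 3 and 4 scored 33.3 to 39.6, whereas month 2 scored -26.5 to 1.86 and month 1 arrays 1 and 5 scored -24.0 and -17.7. Within month 1 the division ran along the slides, so slide and sample cannot be told apart there. Month 2 arrays 1 to 4, also of slide 2, scored -24.5 to 1.86. Month 1 arrays 2, 3 and 4 lay on slide 2 with month 2 arrays 1 to 4, month 1 array 5 lay on slide 3 with month 2 array 5, and month 1 array 1 lay on slide 1 without a month 2 array. The sham arrays were not uniform either. Myh7, the slow myosin, was at 1.62 to 2.16 on sham arrays 1 to 5 and 10 and at 4.73 to 5.91 on sham arrays 6 to 9, both sets lying on slides 1 and 3. Month 1 arrays 2, 3 and 4 were at 2.03 to 2.52, near the lower sham arrays, and month 1 arrays 1 and 5 at 5.75 and 5.13, near the higher ones. The same division went beyond this gene. On the leading component of all 24 arrays (31.4% of the variance), month 1 arrays 2, 3 and 4 scored -30.7 to -25.1. Sham arrays 1 to 5 and 10 scored -32.3 to -21.8, and sham arrays 6 to 9 scored -8.12 to 2.16. Month 1 arrays 1 and 5 scored 10.8 and 7.25, and month 2 scored -2.16 to 12.3. Some arrays thus stood nearer to those of the other label, and the cause was not tested. All labels were kept as given, and the spread of the fit over all 24 arrays includes these differences. Every difference within slide 2 sets month 2 against month 1 arrays 2, 3 and 4. Results are given over all arrays, within slide 2 (4 arrays against 3) and as the difference of the 2 arrays on slide 3, which has no replicate.

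**Figure D1:**
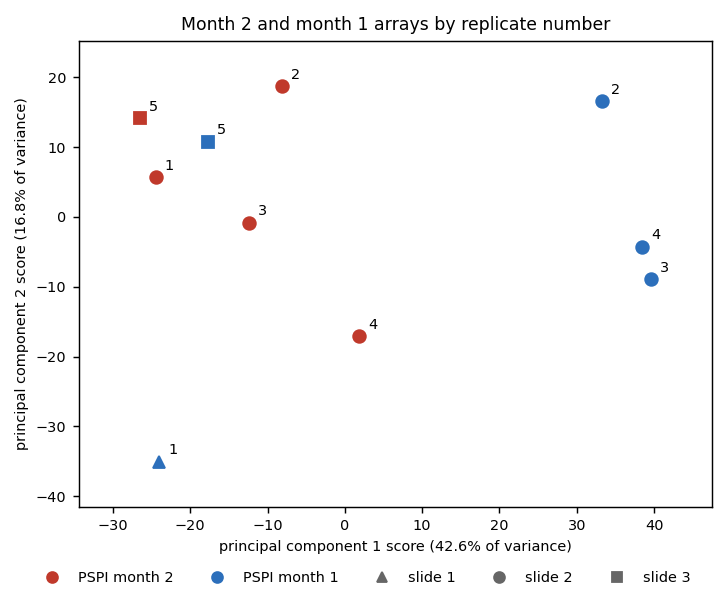
Scores of the 5 month 2 arrays (red) and the 5 month 1 arrays (blue) on principal components 1 and 2, numbered by replicate, with the slide given by the symbol. The components rest on those of the 12449 genes without a missing value. Month 1 arrays 2, 3 and 4 score 33.3 to 39.6 on the horizontal axis, and month 1 arrays 1 and 5 lie at -24.0 and -17.7, within the range of month 2 on that axis.

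The intensities below were read by 60-base probes, and whether a probe also matches other transcripts was not tested. The opening 30 bases (5′ to 3′) of those for genes that separated the months on all 10 arrays are shown with their mm9 positions, together with the pair of probes for Vapb, whose readings disagreed.
Pou3f1 (chr4:124337692-124337751, + strand): ggagcttcccccttcaccatttcttcatct
Kcnc1 (chr7:53688622-53688681, + strand): gccttgccgtcttgtacgacagactttttt
Fhl1 (chrX:54045353-54045412, + strand): tattaagatttagcaaagagcaaccttgca
Hmox1 (chr8:77624207-77624266, + strand): atggttgtaagcatccatgttgactgacca
Rnf207 (chr4:151681222-151681281, - strand): taataatgtaaacacccgacatgcaggaca
Cdkn1c (chr7:150644753-150644812, - strand): cgtagagcagcccacggttttgtggaaatc
Vapb, read for the gene (chr2:173604740-173604799, + strand): ctgctggtgatgaagagtcctgactgtgaa
Vapb, other probe (chr2:173609778-173609837, + strand): aacttccgtatgagctgtctccatataatg

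Over all arrays 1 gene passed the test at an adjusted p of 0.05, which is 0.00803% of the genes tested. This was Pou3f1, a POU-domain transcription factor known from Schwann cell myelination and from progenitors of the epidermis and nervous system. Its level was -3.38, -3.65, -4.07, -4.37 and -3.04 on the month 2 arrays, against -4.89, -5.35, -5.60, -5.91 and -4.86 on the month 1 arrays. Every month 2 array was above every month 1 array, those of slides 1 and 3 included. Pou3f1 rose by 1.62 ± 0.26 (SE, limma, adjusted p = 0.0369), a 3.07-fold difference. The difference was 1.75 within slide 2 and 1.82 on slide 3. The probe was dim, being well above background on 5 month 2 arrays and 4 month 1 arrays. Pou3f1 averaged -2.94 ± 0.45 in month 3 (SD, n = 4) and -5.19 ± 0.37 in sham (n = 10), against -5.32 ± 0.46 in month 1. Sham ranged from -5.77 to -4.56, and month 1 array 4 lay below that. Leaving out an array at a time gave adjusted p-values of 0.0119 to 0.217. Averaging chosen sets of arrays, among them month 1 arrays 1 and 5 and month 2 arrays 1 and 5, gave 0.247. Month 1 arrays 3 and 4, which lay closer to each other than month 1 arrays 1 and 5 did, were not averaged.

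At an unadjusted p of 0.05, 594 genes were higher and 988 lower in month 2 (4.77% and 7.94% of the genes tested, 12.7% in all). For 435 genes (3.49%) the 5 month 2 arrays did not overlap the 5 month 1 arrays, with 177 higher and 258 lower (1.42% and 2.07%). The split between directions depended on the scaling, at 206 higher and 151 lower with the percentile taken over all probes and 212 and 190 after quantile normalization. Of the genes named below, those without a call missed the test over all arrays, with adjusted p-values of 0.0908 or above. The gene lists below were chosen with earlier results of these data known. A list count above the share of all genes is therefore no independent support.

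Fhl1, a LIM-domain protein that binds titin in the stretch-sensing complex of the sarcomere, was at -1.93, -2.52, -2.17, -1.97 and -2.08 in month 2, against -2.74, -3.48, -3.36, -3.21 and -2.85 in month 1. The difference was 1.00 ± 0.24 (adjusted p = 0.15 over all arrays), with 1.20 within slide 2 and 0.77 on slide 3. Myot, the Z-disc protein myotilin, was at 0.28 to 1.63 in month 2 and at -0.67 to -0.06 in month 1, a difference of 1.15 ± 0.23. Desmin (Des), the intermediate filament of muscle, was at 2.36 to 2.46 in month 2 and at 1.62 to 2.24 in month 1. Pdlim5, a PDZ and LIM protein of the Z-disc, differed by 0.28 ± 0.15, and Hspb7, a small heat shock protein of heart muscle that binds filamin, by 0.43 ± 0.16, also without overlap. Of the 25 sarcomere genes, all measured, Des and Pdlim5 were higher without overlap, where 1.42% of all genes were, and the median difference of the list was -0.02, against -0.03 over all genes. Tcap, the titin cap of the Z-disc, had the opposite sign at -0.64 ± 0.27 with overlapping arrays.

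Kcnc1, which encodes the fast voltage-gated potassium channel subunit Kv3.1, was at -4.50, -4.45, -4.45, -4.45 and -4.80 in month 2, against -5.38, -5.59, -5.49, -5.58 and -5.56 in month 1. The narrow spread within both groups gave an adjusted p of 0.00553 when the 10 arrays alone were fitted, where Kcnc1 was the 1 gene called, against 0.125 over all arrays. The sham arrays ranged from -6.03 to -4.51. Ppip5k1, a kinase that makes inositol pyrophosphates, was 0.68 ± 0.13 higher. Btnl9, a butyrophilin-like membrane protein, was at -1.23 to -0.91 in month 2 and at -2.56 to -1.67 in month 1. Rab3ip, an exchange factor for Rab8, was 0.44 ± 0.10 higher over all arrays, with separate differences of 0.59 within slide 2 and 0.10 on slide 3. St8sia5, a sialyltransferase of gangliosides, was 1.17 ± 0.24 higher, with well-above-background readings on 5 month 2 and 2 month 1 arrays. Suds3, a subunit of the Sin3 histone deacetylase complex, was at -0.56 to -0.36 in month 2 and at -1.12 to -0.74 in month 1, and it averaged -0.88 ± 0.13 in month 3, close to its month 1 mean of -0.97. Ackr2, a receptor that scavenges inflammatory chemokines, and Agap2, an Arf GTPase-activating protein, were 1.19 ± 0.26 and 0.71 ± 0.15 higher with 1 or more arrays overlapping.

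Vapb, an endoplasmic reticulum membrane protein that tethers other organelles, was at 0.72 to 1.42 in month 2 and at -0.37 to 0.12 in month 1, a difference of 1.17 ± 0.24. The other Vapb probe, whose mm9 position lies further along the + strand on chromosome 2, averaged -1.63 ± 0.13 in month 2 and -1.36 ± 0.31 in month 1 (SD, n = 5 each), a difference of -0.27. The 2 probes thus went opposite ways, so the value holds for the probe and not for the gene as a whole. Of the 27 further probes for 23 of the genes named here, 26 had the sign of the probe used. Sizes could differ in either direction. The other probe gave -0.08 for Ccnl2, -0.10 for Firre, -0.05 for Atp2a2 and 0.09 for Orai1. The probe used gave -0.37, -0.58, -0.31 and 0.32. For Trdn the others gave -0.23 and -0.13, against -0.57, and for Pdlim5 0.29 and 0.64, against 0.28.

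Among stress-responsive genes, Hmox1, the heme-degrading heme oxygenase 1, was at -0.89, -1.09, -1.57, -1.31 and -1.16 in month 2, against -1.85, -1.86, -1.86, -1.85 and -1.97 in month 1. The difference was 0.68 ± 0.16 (adjusted p = 0.15), with 0.64 within slide 2 and 0.81 on slide 3. Mt2, a metallothionein that binds zinc and copper, was at 2.26 to 3.05 in month 2 and at 0.92 to 2.25 in month 1. Ddit4, an inhibitor of mTORC1 induced by hypoxia and glucocorticoids, was 1.11 ± 0.27 higher in month 2 and stood at 2.02 ± 0.53 in month 3. Txnrd1, the cytosolic thioredoxin reductase, was 0.33 ± 0.10 higher, also without overlap. Of the 34 antioxidant genes, all measured, Hmox1, Mt2 and Txnrd1 were the 3 higher without overlap, where 1.42% of all genes were, and the list's median difference was 0.00. Of 23 measured hypoxia and angiogenesis genes, 4 were higher without overlap (1.42% of all genes), which were Hmox1, Ddit4, the mitophagy receptor Bnip3 (0.59 ± 0.17) and the HIF prolyl hydroxylase Egln3 (0.72 ± 0.26). Angpt1, the Tie2 ligand that stabilises vessels, went the other way, at -2.93 to -1.28 in month 2 and at -1.78 to -0.30 in month 1.

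Among genes lower in month 2, Cdkn1c, the cyclin-dependent kinase inhibitor p57, was at -2.15, -1.53, -1.76, -1.81 and -2.21 in month 2, against -1.25, -0.99, -0.57, -0.73 and -1.43 in month 1, a difference of -0.90 ± 0.22. Hexim1, which with 7SK RNA inhibits the elongation kinase P-TEFb, differed by -0.36 ± 0.08. Ccnl2, a cyclin of the splicing machinery, differed by -0.37 ± 0.08 and Gpatch8, a G-patch domain protein, by -0.44 ± 0.10. Firre, a long non-coding RNA of the X chromosome, differed by -0.58 ± 0.14. None of these differences reached 2-fold over all arrays.

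Rnf207, a ubiquitin ligase that in human genetics and in cell and animal work has been tied to cardiac repolarisation, was at 0.06, 0.04, 0.20, 0.36 and 0.00 in month 2, against 0.62, 1.20, 1.22, 0.79 and 0.47 in month 1. It averaged 0.05 ± 0.27 in month 3 and 0.99 ± 0.26 in sham. Abcb1b, a P-glycoprotein drug efflux pump, differed by -0.65 ± 0.12 (adjusted p = 0.0908) and Stard13 by -0.46 ± 0.11. Fyco1, an adaptor for autophagosome transport, differed by -0.64 ± 0.15 and Lysmd4, a LysM-domain protein, by -0.59 ± 0.13, each with overlapping arrays. Mmp11, the matrix metalloproteinase stromelysin 3, differed by -0.43 ± 0.09 and Mamdc2, a secreted MAM-domain protein, by -0.72 ± 0.15, both without overlap. Mamdc2 was well above background on 3 month 2 arrays and on 5 month 1 arrays. Its month 3 mean of -4.89 ± 0.23 and its sham mean of -5.02 ± 0.27 lay near month 1 (-4.91 ± 0.14) rather than month 2 (-5.63 ± 0.25). Slc51a, the alpha subunit of an organic solute transporter, differed by -1.56 ± 0.37, and it was well above background on 2 month 2 arrays and 5 month 1 arrays. Gdap10 differed by -0.90 ± 0.22.

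**Figure D2:**
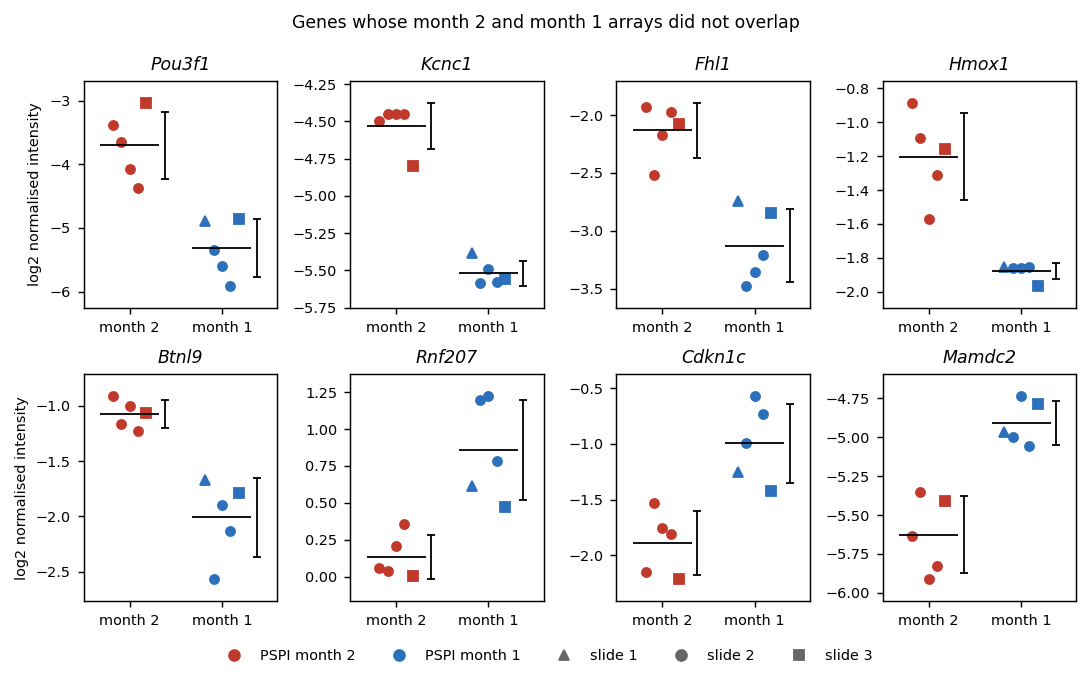
Log2 normalised intensity of 8 genes whose 5 month 2 arrays (red, left) did not overlap the 5 month 1 arrays (blue, right). Horizontal bars are means, vertical bars are the SD over 5 arrays, symbols give the slide, and each panel has its own axis. Pou3f1 differs by 1.62 and Cdkn1c by -0.90 on the log2 scale.

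The labels do not pair the samples. The replicate numbers were taken as pairs from the expression data themselves, by the check described under processing, and the pairing is uncertain. A fit with the number as a block had 4 residual degrees of freedom. It called 38 genes, 14 higher and 24 lower (0.305%, 0.112% and 0.193% of genes tested), against 1 gene without the block. The adjusted p-values of the blocked fit depend on that pairing, which was chosen from the same values that the fit tests. They are given as description and are no independent support. Of the 38, 19 had no overlap between the months (3.49% of all genes) and 29 were also called within slide 2 (10.2% of all genes), in fits that share these arrays. Apart from Pou3f1, Myot, Ppip5k1, Kcnc1, Btnl9, Adamts9, Fhl1, Cdkn1c, Gdap10 and Iigp1, the genes among them that are named here were chosen after their values were seen. In the blocked fit the adjusted p was 0.00361 for Pou3f1, 0.0266 for Kcnc1, 0.0367 for Fhl1, 0.0443 for Ppip5k1 and 0.0489 for Myot. For 2 of the 38 genes no month 2 array was well above background, and they are not described.

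Adamts8, a secreted metalloprotease linked to pulmonary hypertension, had the largest rise among the 14. It was at -1.44, -3.60, -3.58, -4.15 and -1.22 in month 2, against -3.84, -4.67, -5.76, -5.83 and -3.56 in month 1. The groups overlapped, yet each month 2 array was 1.07 to 2.40 above the month 1 array of the same number, and the blocked difference was 1.94 ± 0.21 (adjusted p = 0.0443). Adamts9, which cleaves versican, was 0.92 ± 0.12 higher in the blocked fit (adjusted p = 0.0499). Tent5b, a non-canonical poly(A) polymerase, was at -3.20 to -1.72 in month 2 and at -4.85 to -3.53 in month 1, a rise of 1.61 ± 0.18 in the blocked fit (adjusted p = 0.0443). Slc16a3, the lactate carrier MCT4, rose by 1.09 ± 0.13 and Eno2, a glycolytic enolase, by 0.70 ± 0.07, while no gene of the glycolysis list was called in the blocked fit. Uck2, which salvages uridine and cytidine, rose by 1.12 ± 0.13.

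Il18, the cytokine, fell by 1.02 on the log2 scale in the blocked fit (SE 0.11, adjusted p = 0.0443) and was well above background on 2 month 2 arrays and on 5 month 1 arrays. Il18bp, the soluble protein that binds and neutralises it, was at -2.21 to -1.81 in month 2 and at -2.75 to -2.34 in month 1, a rise of 0.57 ± 0.07 in the blocked fit (adjusted p = 0.0462). Angpt1 fell by 1.31 on the log2 scale (SE 0.15, adjusted p = 0.0451), and Iigp1, an interferon-inducible GTPase, by 1.30 (SE 0.11, adjusted p = 0.0266). Art4, an ADP-ribosyltransferase family member that carries a blood group antigen, fell by 1.15 and did not overlap between the months. Dpep1, a renal-type dipeptidase that cleaves leukotriene D4, fell by 0.53 with a narrow range of pair differences, Vipr2, a receptor for vasoactive intestinal peptide, fell by 0.81, and Mpzl2, an adhesion protein of epithelia, fell by 1.35.

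**Figure D3:**
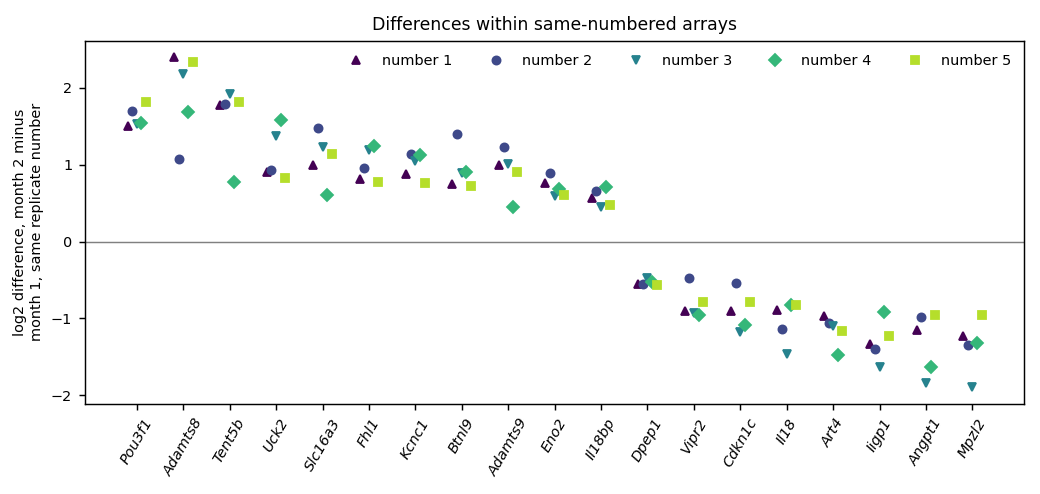
Log2 difference of each month 2 array from the month 1 array of the same replicate number (symbols, 5 per gene) for 19 genes called in the fit with the number as a block. The genes were chosen by these differences, which span 1.07 to 2.40 for Adamts8.

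The hypertrophy and fetal programme list, of which 19 of 22 genes were measured, had a median difference of 0.98, against -0.03 over all genes, but none of its members passed the test over all arrays. Within slide 2 the same list had a median difference of 1.46, with 10 members that rose and 1 that fell, where 5.08% and 5.10% of all genes did so (1267 genes, or 10.2%, were called in all within slide 2). On slide 3 the list's median difference was 0.09. For this and the following lists the counts are description, since the members were chosen with earlier results of these data known. Myh7, the slow beta myosin heavy chain, was at 5.49, 4.67, 5.53, 5.63 and 4.85 in month 2, against 5.75, 2.49, 2.52, 2.03 and 5.13 in month 1. Month 1 arrays 1 and 5 thus stood at the month 2 level, and arrays 2, 3 and 4 far below it. The difference was 1.65 ± 0.84 over all arrays (adjusted p = 0.412), 2.98 ± 0.25 within slide 2 (adjusted p = 0.000808) and -0.27 on slide 3.

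Other members had the same order of arrays. Acta1, the skeletal alpha-actin of the fetal programme, was at 4.38, 3.47, 4.14, 5.21 and 4.07 in month 2, against 3.49, 0.32, 0.38, 0.76 and 3.35 in month 1, and rose by 3.81 ± 0.36 within slide 2 (14.1-fold, adjusted p = 0.00157). Unlike Myh7, Acta1 was at 1.42 to 3.17 in month 3, below every month 2 array. Nppb, the B-type natriuretic peptide, was at 4.77, 3.17, 4.18, 3.76 and 4.36 in month 2, against 4.21, 1.61, 0.24, -1.49 and 3.74 in month 1, and rose by 3.85 ± 0.68 within slide 2. Ankrd1, a titin-binding stretch-responsive cofactor, rose by 2.27 ± 0.27 within slide 2 and differed by 0.06 on slide 3. Nppa, the atrial natriuretic peptide, was at 4.64 to 6.01 in month 2 and at 0.61 to 5.68 in month 1 and was not called within slide 2 (2.12 ± 0.98, adjusted p = 0.217). The summed level of the atrial marker list spanned 4.82 to 6.48 in month 2 and 2.17 to 6.66 in month 1 on the log2 scale, and its part in the Nppa values was not tested. Hopx, a homeodomain-only cofactor of myocytes, fell within slide 2 by 0.88 on the log2 scale (SE 0.18). Myh6, the fast alpha myosin heavy chain, differed by -0.32 ± 0.42 over all arrays and by -0.46 ± 0.30 within slide 2, with no call in either. Fhl1 was the member of the list without overlap over the 10 arrays.

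The arrangement held broadly for the genes called within slide 2. Month 1 arrays 1 and 5 had no part in that fit, yet for 92.3% and 89.1% of the 1267 genes they lay on the month 2 side of the midpoint between the slide 2 group means, against 67.7% and 64.4% of all genes. On slide 3 the difference had the slide 2 sign for 74.7% of the called genes and for 61.4% of all genes. Of the 1267 genes, 182 did not overlap over the 10 arrays, and 402 differed by 2-fold or more within slide 2 (216 higher and 186 lower). Within month 1 the slide and the sample cannot be told apart, and the cause of the division was not tested. Levels of sham arrays within slides 1 and 3 are given beside it. The mean centred level of the hypertrophy list was -1.52 on sham array 1 and 0.20 on sham array 7 of slide 1, and -1.58 on sham array 5 and 0.06 on sham array 9 of slide 3.

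**Figure D4:**
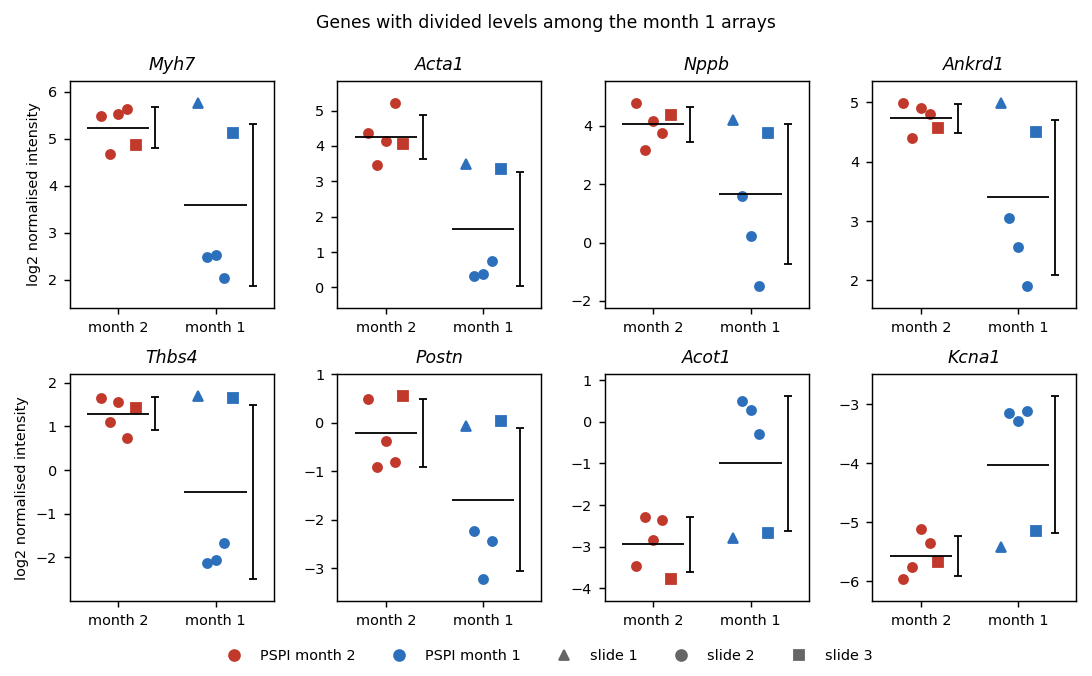
Log2 normalised intensity of 8 genes on the 5 month 2 arrays (red, left) and the 5 month 1 arrays (blue, right), with means and SDs as bars, slides as symbols and an axis per panel. Month 1 arrays 1 and 5 (triangle and square) lie beside month 2, and month 1 arrays 2, 3 and 4 (circles) apart from it, as for Myh7 at 5.75 and 5.13 against 2.03 to 2.52.

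Of 22 matricellular genes, which encode secreted proteins that modulate rather than build the matrix, 18 were measured, with a median difference of 0.86 over all arrays, 1.51 within slide 2 and -0.05 on slide 3. Within slide 2, 13 rose and 1 fell, where 5.08% and 5.10% of all genes did so. Thbs4, a thrombospondin of stressed heart and tendon, was at 1.65, 1.11, 1.56, 0.73 and 1.42 in month 2, against 1.69, -2.13, -2.05, -1.68 and 1.65 in month 1. It rose by 3.22 ± 0.24 within slide 2 (9.29-fold, adjusted p = 0.000663) and differed by -0.24 on slide 3. Ltbp2, which binds elastic microfibrils, rose by 3.26 ± 0.36 within slide 2, and Postn, the periostin of activated fibroblasts, by 2.23 ± 0.37. Thbs2 was the member that fell within slide 2, and its 5 month 2 arrays (-3.91 to -3.11) lay below all 5 month 1 arrays (-3.01 to -2.37). Ogn, the proteoglycan osteoglycin, differed by -0.45 ± 0.13 without a call.

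Of 29 measured collagen and structural matrix genes (31 listed), 7 rose and none fell within slide 2, where 5.08% and 5.10% of all genes did so. The list's median differences were 0.28 over all arrays, 0.59 within slide 2 and 0.09 on slide 3. The 7 were the collagens Col4a1, Col4a2, Col8a1 and Col12a1, the fibulin Fbln2 (0.82 ± 0.15) and the proteoglycans Vcan (1.34 ± 0.33) and Bgn (0.89 ± 0.17). The fibrillar collagens Col1a1 and Col3a1 were not called. Col1a1 was at 1.81 to 3.15 in month 2 and at 0.88 to 2.26 in month 1 (0.68 ± 0.39 over all arrays, adjusted p = 0.471), and Col3a1 differed by 0.40 ± 0.38. Vcan and Bgn were also 0.98 and 0.63 higher on slide 3, unlike Thbs4. Timp1, the inhibitor of matrix metalloproteinases, was at -1.64 to 0.60 in month 2 and at -3.61 to -0.50 in month 1 and was not called within slide 2 (adjusted p = 0.0753). Tgm2, a transglutaminase that crosslinks matrix, rose within slide 2 by 0.83 ± 0.12 and Fstl3, which binds activin, by 1.75 ± 0.22. The fibroblast markers, all 18 measured, had a median difference of 0.10 and a summed level of 6.80 to 7.15 in month 2 and of 6.74 to 7.20 in month 1. Among them Pdgfra had no overlap between the months at -0.35 ± 0.12, and Pi16 rose within slide 2 by 1.45 ± 0.23.

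All 40 listed genes of fatty acid uptake and oxidation were measured, their median difference was -0.34 over all arrays, and none passed the test there. Within slide 2, 17 fell and none rose, where 5.10% and 5.08% of all genes did so. The list's median difference was -0.54 within slide 2 and -0.13 on slide 3. Acot1, a cytosolic acyl-CoA thioesterase that responds to PPAR alpha, was at -3.47, -2.28, -2.84, -2.36 and -3.78 in month 2, against -2.80, 0.50, 0.27, -0.30 and -2.68 in month 1. It fell within slide 2 by 2.90 on the log2 scale (SE 0.31, adjusted p = 0.00261), and it differed by -1.10 on slide 3. Its mitochondrial relative Acot2 fell within slide 2 by 1.21, and the probes of such close paralogues may share signal. Etfdh, which passes electrons from acyl-CoA dehydrogenases to ubiquinone, fell within slide 2 by 0.60.

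Citric acid cycle genes (20 of 21 measured) had a median difference of -0.23. Within slide 2, 3 were lower and none higher, against 5.10% and 5.08% of all genes. Among the 3, Suclg1 of the succinyl-CoA ligase fell there by 0.47. The 43 genes of the respiratory chain and ATP synthase had a median difference of -0.16. Within slide 2, 2 of the 43 were lower, a share near the 5.10% of all genes lower there. Ndufs1, the largest subunit of complex I, fell there by 0.51 and differed by -0.52 on slide 3. The 28 glycolysis genes had a median difference of 0.04, and the phosphofructokinases moved in both directions. Pfkp, the platelet-type isoform, was at -0.98 to -0.56 in month 2 and at -2.84 to -1.13 in month 1, without overlap, and rose within slide 2 by 1.79 ± 0.14 (adjusted p = 0.000713). Pfkfb1, which makes and degrades the regulator fructose 2,6-bisphosphate, fell within slide 2 by 2.34. The mitochondrial and the cytosolic ribosomal protein genes had medians of -0.05 and -0.09, with 1 gene and no gene called within slide 2, where 10.2% of all genes were.

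Potassium channel genes (21 of 24 measured) had a median difference of -0.25. Within slide 2, 9 of the 21 fell and none rose, where 5.10% and 5.08% of all genes did so. The list's median difference was -0.37 within slide 2, against -0.09 on slide 3. Kcnc1, which the list does not hold, rose within slide 2 by 1.09 ± 0.08 (adjusted p = 0.000713). Kcnj5, a subunit of the acetylcholine-activated inward rectifier, was at -0.91, -0.72, -0.86, -0.69 and -0.88 in month 2, against -0.61, 0.35, 0.44, 0.10 and -0.54 in month 1, without overlap, and fell within slide 2 by 1.09 (SE 0.12). Kcnd2, which carries the transient outward current of mouse ventricle, was at -1.79 to -1.02 in month 2 and at -1.73 to -0.22 in month 1, and Kcnj2, the Kir2.1 inward rectifier, at -5.72 to -5.11 in month 2 and at -5.36 to -4.01 in month 1. Both fell within slide 2, by 1.22 and 1.21. Kcna1 fell there by 2.36, and it was well above background on 3 month 2 arrays and 5 month 1 arrays. Month 3 means were -1.27 for Kcnj5 and -2.24 for Kcnd2, each below its month 2 mean of -0.81 and -1.55.

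Calcium handling genes differed less, with a median of -0.05 over 24 measured genes and of -0.06 within slide 2, where 2 fell and none rose, against 5.10% and 5.08% of all genes. Those that fell were Trdn, the triadin of the release channel complex, by 0.86, and the channel subunit Cacna2d1 by 0.58. Atp2a2, the SERCA2 calcium pump, and its inhibitor Pln differed by -0.31 ± 0.20 and -0.25 ± 0.18 and were called in neither fit. Orai1, the store-operated channel, was higher without overlap by 0.32 ± 0.10, and Jph2, which joins the sarcoplasmic reticulum to the T-tubule, was 0.44 ± 0.16 higher with overlap. Among adrenergic and cAMP genes (23 measured), 2 rose and 3 fell within slide 2, against 5.08% and 5.10% of all genes, among them Adcy6, a cardiac adenylyl cyclase, which fell there by 0.50. Agtr1a, the type 1a angiotensin receptor, fell within slide 2 by 0.99 and differed by 0.00 on slide 3.

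Within slide 2, 2 of 21 measured chemokine and cytokine genes rose and 3 fell, and 5 of 30 measured interferon response genes rose and 1 fell, against 5.08% and 5.10% of all genes. Of 22 measured macrophage and monocyte markers none was called over all arrays, in the blocked fit or within slide 2. Their median difference was 0.02 over all arrays, -0.04 within slide 2 and 0.34 on slide 3. Their summed levels were 3.77 to 4.28 in month 2 and 3.96 to 4.07 in month 1. Their mean centred level was 0.36 and 0.31 on month 2 arrays 1 and 5 and -0.23 to -0.16 on month 2 arrays 2 to 4. In month 1 it was -0.06 to 0.03. Ccl8, a monocyte chemokine, was at -0.60 to 0.16 in month 2 and at -1.97 to -0.75 in month 1, without overlap (0.91 ± 0.30, adjusted p = 0.267). Cx3cl1, the membrane chemokine fractalkine, was higher without overlap, by 0.98 ± 0.13 within slide 2, where it rose, and by 0.09 on slide 3. Lcn2, the iron-binding lipocalin of neutrophils and acute phase, was at -0.73, -2.54, -3.32, -2.94 and -0.78 in month 2, against -4.13, -3.98, -3.52, -2.55 and -4.29 in month 1. Its difference was 3.51 on slide 3 and 0.96 ± 0.62 within slide 2. S100a8, the calprotectin subunit, was at -3.81 to -2.71 in month 2 and at -5.09 to -3.13 in month 1 (1.01 ± 0.50), and at -7.92 to -5.47 in sham. The interferon response genes had a median of 0.00 over all arrays, of 0.17 within slide 2 and of -0.29 on slide 3. Gbp2 and Oasl2 were lower without overlap, with differences of -0.44 ± 0.13 and -0.54 ± 0.20.

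Epicardial and mesothelial markers (12 of 17 measured) had median differences of -0.82 over all arrays, -1.94 within slide 2 and 0.05 on slide 3. Within slide 2, 3 fell and 1 rose, where 5.10% and 5.08% of all genes did so. Msln, the mesothelin of the epicardial surface, was at -3.97, -4.81, -3.52, -1.19 and -4.02 in month 2, against -2.34, -0.41, -0.35, 0.97 and -2.38 in month 1. Muc16, a surface mucin, was at -5.91 to -1.41 in month 2 and at -3.89 to -0.41 in month 1, and Efemp1, a fibulin of the surface layer, fell within slide 2 by 2.28. The summed level of the list was 4.49 to 5.17 in month 2 and 4.41 to 5.19 in month 1. Sfrp5, a secreted Wnt inhibitor, was at -6.07 to -5.66 in month 2, against -5.65, -1.97, -2.35, -2.67 and -5.83 in month 1. It fell within slide 2 by 3.49 (SE 0.18, adjusted p = 0.00037). Its month 2 levels were about as low as the lowest of the dim Pou3f1 probe, so the size of the fall is uncertain. In such bulk samples fewer cells of a type and less RNA per cell cannot be told apart, and the part of these cells in the other differences was not tested.

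Endothelial markers, all 25 measured, had a median of 0.02 and summed levels of 5.90 to 5.98 in month 2 and of 5.90 to 6.02 in month 1. The surface proteins Ly6a and Ly6c1 were higher without overlap (0.37 ± 0.13 and 0.31 ± 0.12), and the water channel Aqp1 was at -0.26 to 0.58 in month 2 and at 0.13 to 1.92 in month 1, a fall of 1.25 within slide 2. Of 11 measured neuronal and Schwann cell markers, 1 rose and 3 fell within slide 2, against 5.08% and 5.10% of all genes. Uchl1, a deubiquitinase, was the member that rose there, by 2.14 ± 0.26. The summed level of that list was 2.07 to 2.54 in month 2 and 2.12 to 2.29 in month 1. Cell cycle genes (18 of 29 measured) had a median of 0.26, with 3 higher within slide 2, where 5.08% of all genes were. Among the 3 were Ccnd1, by 0.93 ± 0.19, and Ccnd2, by 0.92 ± 0.14. Cdkn1a, the p53-responsive inhibitor p21, rose within slide 2 by 1.18 ± 0.30 and averaged -0.93 ± 0.54 in month 3, against -1.70 ± 0.11 in month 2 and -2.48 ± 0.73 in month 1.

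**Figure D5:**
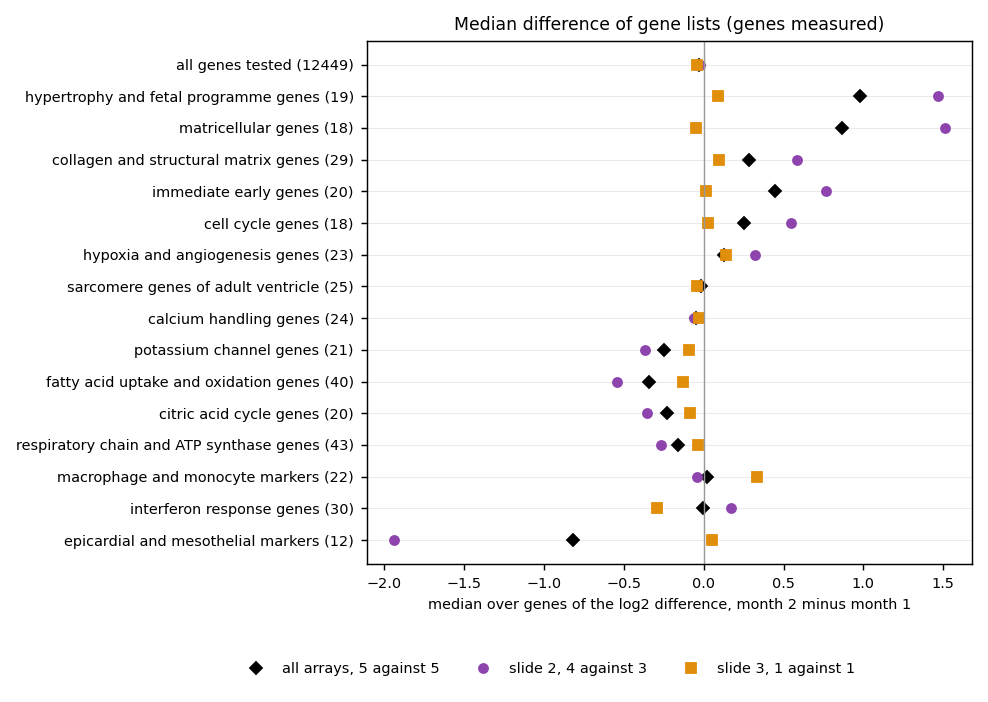
Median over the measured genes (number in brackets) of the log2 difference of month 2 from month 1 for all genes and 15 gene lists, over all arrays (diamonds), within slide 2 (circles) and on slide 3 (squares, no replicate). The hypertrophy list stands at 0.98, 1.46 and 0.09 and the matricellular list at 0.86, 1.51 and -0.05, while all genes stand near 0.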

How the data were processed

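Spot signals came from Agilent Feature Extraction 10.7.3.1, per the submitters' processing notes. Per the file headers, the processed intensity is background-subtracted and detrended, with probe positions on mm9. The table of intensity values the authors deposited equals the scanner files' net signal. Outlier spots and control spots were left out, and log2 processed intensity minus each array's 75th percentile over 16946 probes well above background on all 24 arrays was used. Probes were kept where some group had all of its arrays well above background (21040 of 55681), and the kept probe of highest mean stood for its gene (12449 genes). Means of 4 groups were fitted to 24 arrays with limma 3.58.1 in R 4.3.3, two-sided, with Benjamini-Hochberg adjustment and a threshold of 0.05. The fit was tested on simulated data. The number of arrays limits precision.

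Named genes are 15 in each direction by change among those past the threshold, filled by smallest p, up to 4 of smallest p per list and 11 fixed cardiac genes, with exceptions stated. The members and lists were chosen with earlier results of these data known. Same-numbered month 2 and month 1 arrays deviated together from their group means (correlations 0.231, 0.333, 0.185, 0.334 and 0.515), so the numbers were taken as pairs, from the data and not from the labels. Arrays of unlike number reached correlations of 0.422 (month 2 array 4 with month 1 array 3), 0.216 and 0.185, so the pairing is uncertain. Month 2 array 4 thus deviated more with month 1 array 3 than with month 1 array 4 (0.334). The highest correlation, 0.515, was between the 2 arrays that share slide 3, and the part of the slide was not tested. Alternatives varied scaling, background, filter, probe, arrays, weights and slide. Some genes that the naming rule selects are not reported here.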

Additional observations from a re-analysis of the deposited data

Results flagged for a closer look

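Of 228 groups of 5 arrays examined for the named genes, 8 held an array far from the other 4 by Dixon's criterion, which chance meets in about 1 in 20 groups. Hsp90b1, an endoplasmic reticulum chaperone, was at -4.85 on month 1 array 1, where the other month 1 arrays were at 2.13 to 2.23, and it was lowest on month 2 array 4 at 1.85. Muc16 was at -1.41 and Hspb7 at 3.09 on month 2 array 4, each the highest of its group. Ccnl2 was highest on month 2 array 2 at 0.50, and Kcnc1 lowest on month 2 array 5 at -4.80. Among month 1 arrays, Agap2 was highest on array 4 at -3.18, which overlapped month 2, and Hmox1 was lowest on array 5 at -1.97.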

How the results depend on the processing

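The count of 1 called gene stayed at 1 with the percentile over all probes, quantile normalization, the mean of all probes, a trended robust prior and slide as a fixed or random block, in each of which the gene was Pou3f1, and with the 10 arrays alone, where it was Kcnc1. Slide 3 alone, with 1 array of each month and its spread taken from the other groups, is no check of that count. No gene was called with normexp, the deposited table, no filter on dim probes, or probes well above background on all 10 arrays. Nor was any called with the chosen sets of arrays averaged. In these settings, in order, 1163, 1136, 1682, 1419 and 1536 genes had an unadjusted p under 0.05. The count was 38 with the replicate block, 1267 for slide 2 alone and 2071 with array weights, which gave month 1 arrays 1 and 5 weights of 0.511 and 0.512 and month 1 arrays 2 to 4 weights of 1.41 to 1.65. Leaving out an array at a time gave 0 to 2 calls. Pou3f1 was not called without month 1 array 2, 3 or 4 or month 2 array 1, 2 or 5. Genes without overlap were 146 higher and 142 lower with normexp and 146 and 143 with the deposited table, against 177 and 258. Hsp90b1 changed sign to -0.0777 for slide 2 alone and -0.109 for slide 3 alone, against 1.32 over all arrays, and it ranged from -0.0871 to 1.68 when an array was left out, with -0.0871 without month 1 array 1. On slide 3 alone Myh7 was at -0.27, Thbs4 at -0.24 and Agtr1a at 0.0035. The cause was not tested. Probes near background, such as Pou3f1, Il18 and Slc51a, limit precision. The lowest readings of Sfrp5, Kcnj2 and Adamts8 were about as low as those of Pou3f1.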
